A study of Homo sapiens with 6 samples.

Results

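The protein-coding genes for the ligands and receptors of axon guidance were followed in RNA sequencing libraries labelled as H1650, an established human lung adenocarcinoma cell line. The members were taken by name from the table of deposited expression values, as every EPHA and EPHB receptor, ephrin, semaphorin, plexin, neuropilin, ROBO receptor, SLIT ligand, netrin, UNC5 receptor and DCC. This gave 57 of 15897 listed genes, and DCC itself has no value here. The study compared 3 control libraries, labelled wild type, with 3 libraries labelled shSETD2, from cells in which short hairpin RNAs against the histone H3 lysine 36 methyltransferase SETD2 were delivered by lentivirus. The sources used here give no time point and do not say which hairpin each library carried, whether the control cells carried a vector, or whether the libraries of a group came from separate cultures. The p-values below therefore measure only the spread between these libraries, which may be technical. Values are FPKM, a fragment count scaled to gene length and to the mapped total, so levels can be compared between genes.

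Axon guidance cues are secreted or membrane-bound ligands that attract or repel growing axons, and the same molecules guide migrating cells, blood vessels and epithelial sheets. Ephrins sit on the cell surface and bind Eph receptor tyrosine kinases on neighbouring cells, with ephrin-A ligands mainly pairing with EPHA receptors and ephrin-B ligands mainly with EPHB receptors. Semaphorins signal through plexins, and secreted class 3 semaphorins mostly need a neuropilin as the binding subunit. SLIT ligands bind ROBO receptors, and netrins bind DCC, neogenin and the UNC5 receptors. In epithelial cancers, EPHA2, EFNA1 and SEMA3C are often studied for high expression, and SLIT2 and the UNC5 receptors for loss.

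The 2 groups of libraries stood far apart over the whole transcriptome. Correlations across genes, which do not count as replicates, reached 0.985 to 0.991 (Pearson's r on log2(FPKM + 1)) for libraries of 1 group and 0.756 to 0.761 for libraries of different groups. SETD2 itself overlapped between the groups, from 10.2 to 18.0 FPKM in the control and from 8.09 to 12.2 in the shSETD2 libraries. By limma its difference was -0.58 on the log2 scale (standard error, SE, 0.24, adjusted p = 0.0641), and it was -0.83 (adjusted p = 6.66e-03) without control library 2 and -0.73 (adjusted p = 0.0420) without shSETD2 library 3. With any other library left out it was -0.45 to -0.53 (adjusted p from 0.149 to 0.181), and with median ratio scaling it was -0.25 (adjusted p = 0.376). The markers of the labelled tissue were largely missing, since 11 of 12 lung epithelium markers have no value here, and the remaining one, NKX2-1, was between 1.44 and 1.80 FPKM in the control and listed at 0 in the shSETD2 libraries. The summed FPKM of 14 epithelium markers, 11 of them listed, ran from 17.2 to 18.7 in the control and from 408 to 462 in the shSETD2 libraries, where KRT7, KRT8 and KRT18 carried it and CDH1 was at most 0.0140. The 12 markers of embryonic kidney lines, all listed, summed to 120 to 124 in the control and 45.9 to 54.6 in the shSETD2 libraries. Among them NEFM, NEFL and LIN28B were listed at 0 in every shSETD2 library, while PAX8 was at most 0.0368 in the control and between 28.1 and 35.1 in the shSETD2 libraries. These marker differences move with every comparison below, and their part in the results was not tested. The labels name H1650 for all 6 libraries, but with these markers and the overlap in SETD2 the identity of the cells in either group is uncertain. Each value below therefore compares libraries labelled control with libraries labelled shSETD2, and a difference in cell identity cannot be told apart from one in SETD2.

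**Figure D1:**
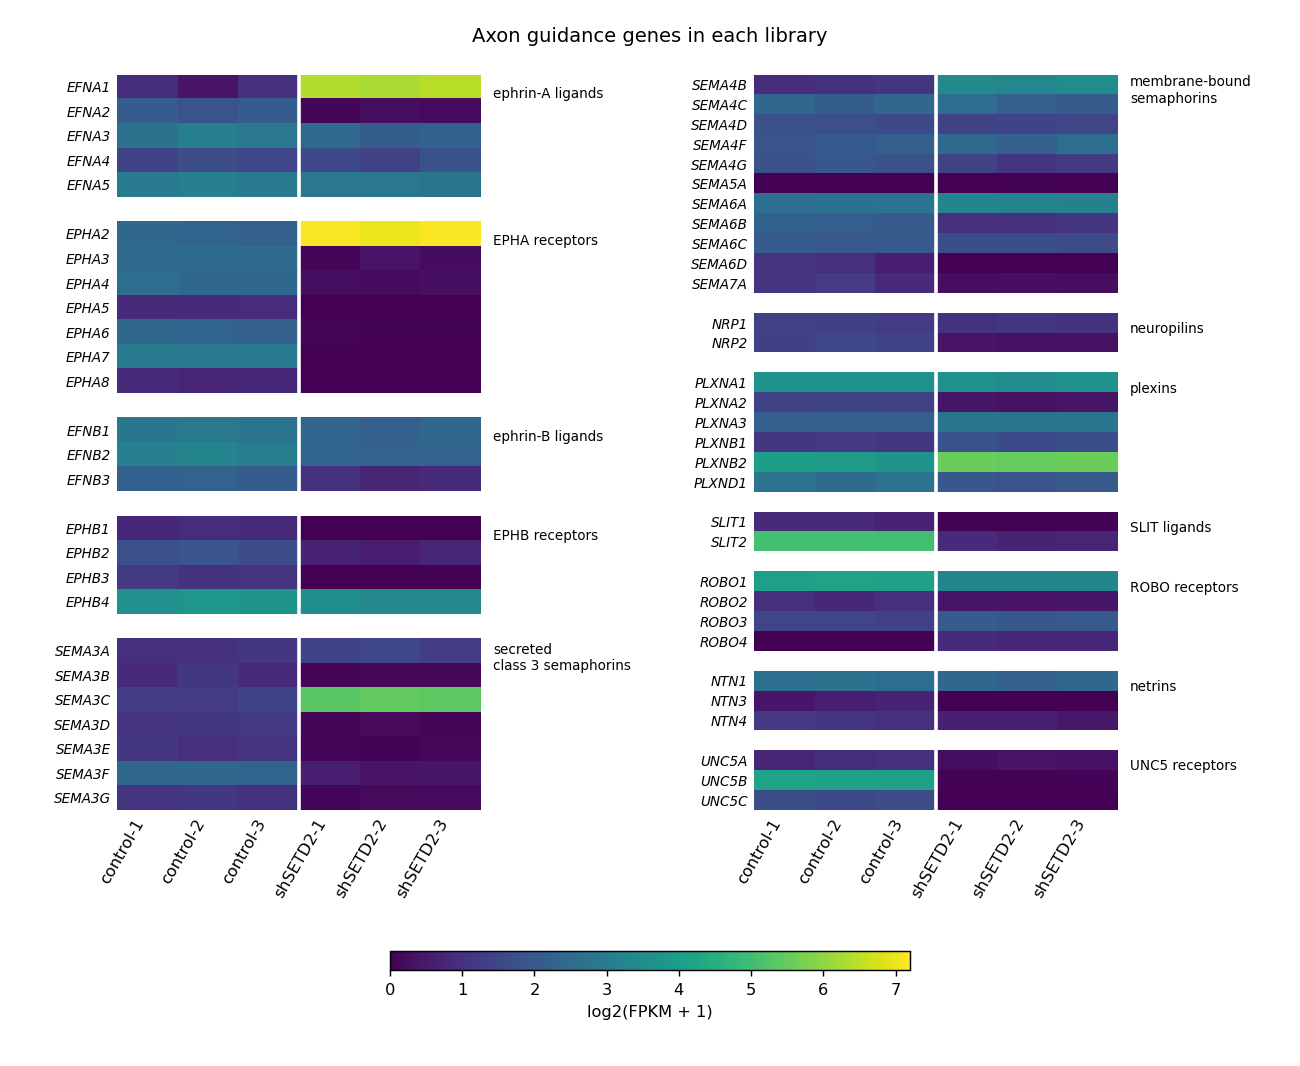
Expression of the 57 axon guidance genes in each of the 6 libraries, as log2(FPKM + 1) by color, with genes in rows grouped by family and libraries in columns. The 3 libraries of a group look alike for nearly every gene, and EFNA1, EPHA2, SEMA3C and PLXNB2 are bright in the shSETD2 libraries where most other members are darker than in the control libraries.

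Of the 57 members, 45 averaged 1 FPKM or more in the control libraries and 27 in the shSETD2 libraries. The same count over all 15897 listed genes was not made, so this drop is not shown to be particular to the members. Over all listed genes, 602 to 653 were at 0 in a control library and 1189 to 1227 in a shSETD2 library. The 49 members that averaged 0.5 FPKM or more across the 6 libraries were tested with limma on log2(FPKM + 1), where fold changes of genes with low FPKM are understated. At an adjusted p under 0.05, 11 were higher in the shSETD2 libraries (22.4%), 35 were lower (71.4%) and 3 were not called. Of all 14068 genes tested, 78.6% were called, 26.8% higher and 51.8% lower, so the share of members that fell has to be read against a general excess of lower genes. A log2 fold change of at least 1 was reached by 5 members (10.2%) upward and 16 (32.7%) downward, against 11.2% and 18.7% of all genes tested. The median log2 fold change was -0.61 for the members and -0.29 for all genes. This general shift depended on scaling, since dividing each library by its median ratio to the geometric mean moved the median of all genes to 0.002 and that of the members to -0.38. With that scaling, 12 members were higher and 26 lower of 48 tested, where 38.2% of all genes were higher and 37.8% lower, and higher genes made up 50.3% of all calls in place of 34.1%. The gap between members and all genes was smaller with quantile normalization, with medians of -0.242 and -0.089. There 13 members were higher and 26 lower of 49 tested, beside 33.5% and 41.8% of all genes. It depended on the filter as well. With the FPKM as deposited and the filter raised to 5 FPKM, the median was -0.193 for the 15 members left and -0.135 for all genes left. There 8 of the 15 members were lower, beside 45.9% of all genes, so the gap was smaller among genes at higher levels. In bulk RNA, fewer cells that express a gene and less RNA per cell cannot be told apart.

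**Figure D2:**
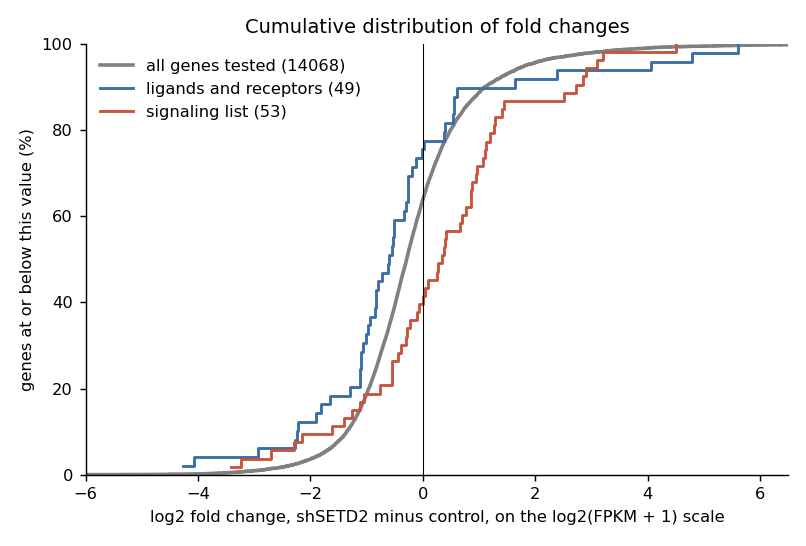
Cumulative share of genes in percent (vertical axis) against the log2 fold change, shSETD2 minus control on the log2(FPKM + 1) scale (horizontal axis), for all 14068 genes tested, the 49 ligands and receptors and 53 genes of a hand-written signaling list. The ligands and receptors lie left of all genes over most of the range, with a few members at the far right, and the signaling list lies to the right.

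The 8 members under the level needed for testing were EPHA5, EPHA8, EPHB1, NTN3, SEMA6D, SLIT1, ROBO4 and SEMA5A. The first 5 of these were listed at 0 in every shSETD2 library and at or under 1.11 FPKM in the control libraries. The groups did not overlap for 55 of the 57 members, with EFNA4 and SEMA4C as the exceptions, nor for 79.4% of all 15897 listed genes, so separation of the groups was the general state. For 3 libraries against 3 the smallest p of an exact two-sided permutation test is 0.1, and every adjusted p below comes from the limma model over all genes tested.

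**Figure D3:**
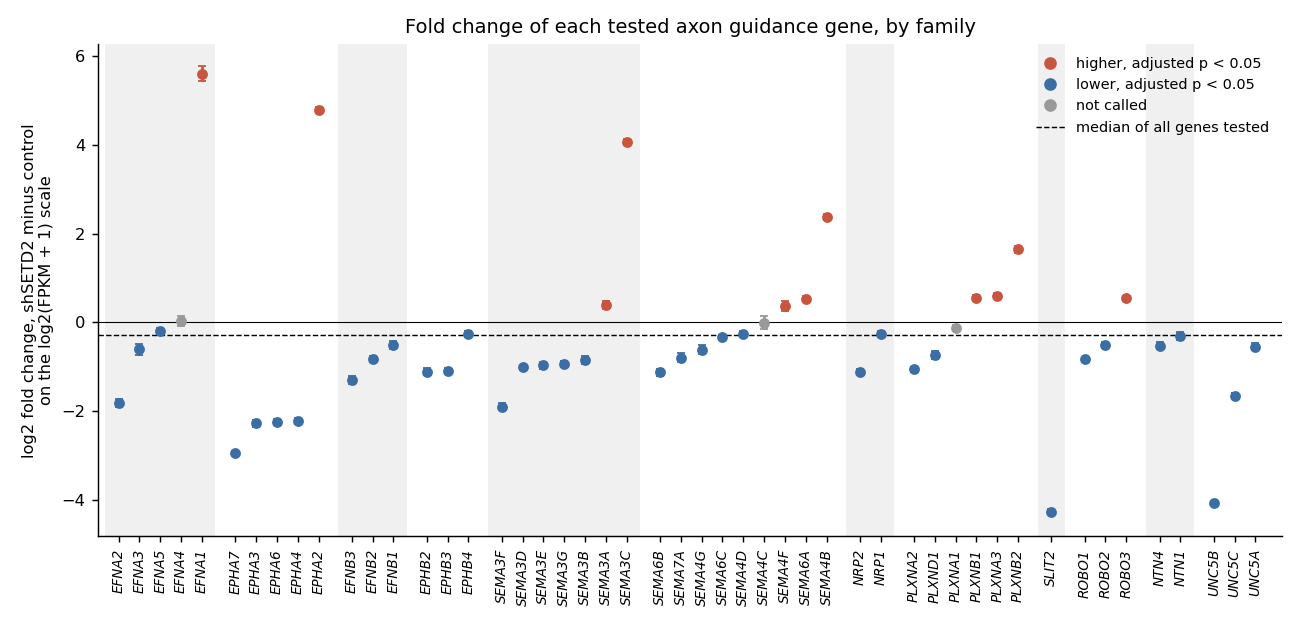
Log2 fold change of each of the 49 tested axon guidance genes, shSETD2 minus control on the log2(FPKM + 1) scale (vertical axis), ordered within its family; points are estimates, bars are standard errors, and the dashed line is the median of all genes tested at -0.29. EFNA1, EPHA2, SEMA3C, SEMA4B and PLXNB2 each lie far above the other members of their family, and SLIT2 and UNC5B lie lowest of all.

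To show the regulatory sequence of the members that moved most, promoters were read from RefSeq (GRCh38.p14), from 250 bases before to 50 after 1 start site per gene. The GRCh38.p14 positions are not comparable with the GRCh37 positions of the deposited table. Of the 57 members 49 had an entry, and EFNB3, NRP1, NTN1, NTN3, SEMA3A, SEMA6A, SEMA6B and UNC5B had none. Of the 6 largest log2 fold changes the 5 with an entry are printed 5′ to 3′ on the strand of the gene, with CG dinucleotides in capitals, as the ligand and receptor that rose together (EFNA1, EPHA2), the semaphorin that rose (SEMA3C), and a receptor and a ligand that fell (EPHA7, SLIT2). They lie at chr1:155127626-155127925 (plus strand), chr1:16156020-16156319 (minus), chr7:80922340-80922639 (minus), chr6:93419510-93419809 (minus) and chr4:20251655-20251954 (plus).
EFNA1: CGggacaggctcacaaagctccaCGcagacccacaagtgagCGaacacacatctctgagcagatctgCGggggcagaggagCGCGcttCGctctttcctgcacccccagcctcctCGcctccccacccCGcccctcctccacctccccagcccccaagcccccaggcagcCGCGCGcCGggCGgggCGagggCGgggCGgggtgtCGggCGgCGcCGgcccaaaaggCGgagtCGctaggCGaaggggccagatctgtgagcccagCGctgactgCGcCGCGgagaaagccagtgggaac
EPHA2: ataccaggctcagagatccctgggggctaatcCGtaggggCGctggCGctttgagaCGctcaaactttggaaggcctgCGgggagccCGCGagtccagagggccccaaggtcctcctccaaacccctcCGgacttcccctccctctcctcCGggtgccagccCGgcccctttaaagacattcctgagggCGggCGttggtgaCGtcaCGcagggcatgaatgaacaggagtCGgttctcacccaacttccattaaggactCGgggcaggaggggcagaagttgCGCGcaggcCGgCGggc
SEMA3C: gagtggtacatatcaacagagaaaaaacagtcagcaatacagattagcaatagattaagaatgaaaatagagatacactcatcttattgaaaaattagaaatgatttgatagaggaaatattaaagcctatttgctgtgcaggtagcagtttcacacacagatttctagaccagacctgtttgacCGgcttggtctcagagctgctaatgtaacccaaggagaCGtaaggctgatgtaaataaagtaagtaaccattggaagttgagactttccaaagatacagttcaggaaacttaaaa
EPHA7: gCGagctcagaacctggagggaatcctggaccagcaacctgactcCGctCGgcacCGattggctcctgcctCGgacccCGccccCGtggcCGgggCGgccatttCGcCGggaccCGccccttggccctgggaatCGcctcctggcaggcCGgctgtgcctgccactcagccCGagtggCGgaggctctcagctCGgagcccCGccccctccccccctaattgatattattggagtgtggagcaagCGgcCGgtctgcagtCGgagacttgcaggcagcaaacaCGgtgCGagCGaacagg
SLIT2: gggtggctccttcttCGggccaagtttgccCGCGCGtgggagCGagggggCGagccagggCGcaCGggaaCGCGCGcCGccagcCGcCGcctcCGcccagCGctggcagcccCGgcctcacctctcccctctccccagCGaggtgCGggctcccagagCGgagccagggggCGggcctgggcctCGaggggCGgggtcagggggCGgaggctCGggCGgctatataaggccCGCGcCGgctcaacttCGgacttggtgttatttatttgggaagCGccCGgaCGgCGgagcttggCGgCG

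These windows hold 28 CG dinucleotides in EFNA1, 20 in EPHA2, 2 in SEMA3C, 24 in EPHA7 and 36 in SLIT2. Their GC content is 71.7%, 64.3%, 36.0%, 68.3% and 74.3% in the same order. SEMA3C thus stands apart from EFNA1 and EPHA2, and its 2 CG dinucleotides are the fewest of the 49 promoters. Low counts were found in both directions, with 7 in PLXNB1, which rose, and 6 each in SEMA3E and SEMA4D, which fell. Other start sites of these genes were not read. Over the 49 members the median was 24 CG dinucleotides and a GC content of 68.3%, against 14 and 58.3% over 27305 promoters of the same length. Members called higher had a median of 20 (9 promoters) and members called lower 25.5 (30 promoters), with ranges of 2 to 51 and 6 to 52. The letters TATAAA were found on either strand in 1 of the 49 promoters, that of EFNB2, against 12% of all promoters. The letters TGANTCA, a form of the AP-1 site with its middle base left free, were found on either strand in 0 of the 49, against 7.76% of all promoters. This share can include sequences that are not AP-1 sites. A narrow form of the NF-κB consensus, with only some of its middle bases left free, was likewise found in 0 of the 49, against 1.92%. NF-κB sites that differ from this form at its fixed bases were not counted, so their absence is not shown. None of these motifs was searched outside this window.

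In the ephrin-A family, EFNA1 had the largest log2 fold change of the 49 tested members on the log2(FPKM + 1) scale, while EFNA2, EFNA3 and EFNA5 fell and EFNA4 was not called. EFNA1 (ENSG00000169242.11_2), a ligand that is induced by inflammatory cytokines in endothelium and binds EPHA2, was at 0.934, 0.292 and 0.957 FPKM in the control libraries, given here and below in the order 1, 2 and 3. It reached 81.8, 76.8 and 85.7 in the shSETD2 libraries, a mean of 81.4 ± 4.47 against 0.728 ± 0.378 (SD, n = 3). Every shSETD2 library was far above every control library, and the log2 fold change was 5.60 (SE 0.17, adjusted p = 4.40e-07). EFNA2 moved the other way, from 3.25, 2.55 and 3.31 FPKM in the control libraries to 0.0702, 0.207 and 0.150 in the shSETD2 libraries (log2 fold change -1.82, adjusted p = 5.37e-06). EFNA5, a repellent for retinal axons and the highest ephrin-A of the control libraries, differed little, at 7.03, 7.86 and 6.67 FPKM against 6.28, 6.33 and 5.85. Its log2 fold change of -0.19 (adjusted p = 0.0389) was lost when any library but control library 3 was left out (adjusted p from 0.0571 to 0.114), and it was 0.12 with median ratio scaling. EFNA3 fell from 6.42 to 3.85 FPKM on average (log2 fold change -0.61, adjusted p = 4.45e-03, and 0.0609 with median ratio scaling), and EFNA4 was at 1.98 ± 0.238 against 2.05 ± 0.431 (SD, n = 3) and was not called (adjusted p = 0.846), except with quantile normalization (log2 fold change 0.38, adjusted p = 0.0223).

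EFNA4, EFNA3 and EFNA1 lie next to each other on chromosome 1 (GRCh37, plus strand), EFNA4 from 155036207 to 155042029, EFNA3 from 155051348 to 155060014 and EFNA1 from 155099936 to 155107333. Only 9319 bases separate EFNA4 from EFNA3, and 39922 bases separate EFNA3 from EFNA1. Within this stretch EFNA1 was thus called higher, EFNA3 lower, and EFNA4 neither. The summed FPKM of the 5 ephrin-A genes was 19.4 ± 1.03 FPKM (SD, n = 3) in the control libraries, against 93.6 ± 4.88 in those with shSETD2. EFNA1 made up 1.42% to 5.05% of it in the control libraries and 86.5% to 87.5% in the shSETD2 libraries.

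Among the EPHA receptors 1 member rose and the others fell to low levels, whereas EFNA3, EFNA4 and EFNA5 had stayed above 1 FPKM in every library. EPHA2 (ENSG00000142627.12_2), the receptor most often linked to epithelial and cancer cell migration, was at 4.19, 4.12 and 3.64 FPKM in the control libraries and reached 142.3, 127.4 and 140.7 in the shSETD2 libraries. This was a 34.3-fold difference of the mean FPKM, with a log2 fold change of 4.79 (SE 0.066, adjusted p = 2.89e-08). In the shSETD2 libraries EPHA2 was the highest of all 57 members. The EPHA genes best known from the developing nervous system went down together. EPHA7 was at 6.74, 6.59 and 6.75 FPKM in the control libraries, the highest EPHA there, and was listed at 0, 0.00782 and 0 in the shSETD2 libraries (adjusted p = 5.10e-08). EPHA3, which binds EFNA5, was at 4.75, 4.68 and 4.82 FPKM against 0.0835, 0.298 and 0.185 (log2 fold change -2.28, adjusted p = 7.94e-07). EPHA4, which binds ephrins of both classes, was at 5.02, 4.45 and 4.35 FPKM against 0.194, 0.168 and 0.238 (log2 fold change -2.22, adjusted p = 4.90e-07). No library of one group reached into the range of the other for these genes. EPHA6 was at 4.28, 3.96 and 3.63 FPKM against 0.0605, 0.0569 and 0.0313 (log2 fold change -2.24, adjusted p = 4.40e-07). EPHA5 and EPHA8, not tested, were between 0.718 and 0.896 FPKM in the control libraries and listed at 0 in every shSETD2 library. An antisense RNA, EPHA5-AS1, overlaps EPHA5 by 535 bases, and whether the counting used strand is not stated.

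The 7 EPHA genes summed to 25.6 ± 0.892 FPKM (SD, n = 3) in the control libraries, against 137.2 ± 8.10 in those with shSETD2. In the control libraries the sum was spread, with 5 genes at 1 FPKM or more in every library, EPHA7 at 25.3% to 27.1% and EPHA2 at 14.6% to 16.2%. In the shSETD2 libraries EPHA2 alone made up 99.6% to 99.8% of it. The order of the mean levels in the control libraries was EPHA7, EPHA3, EPHA4, EPHA2 and EPHA6, in which EPHA7 stood clear while the ranges of EPHA3 and EPHA4, and of EPHA2 and EPHA6, overlapped.

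**Figure D4:**
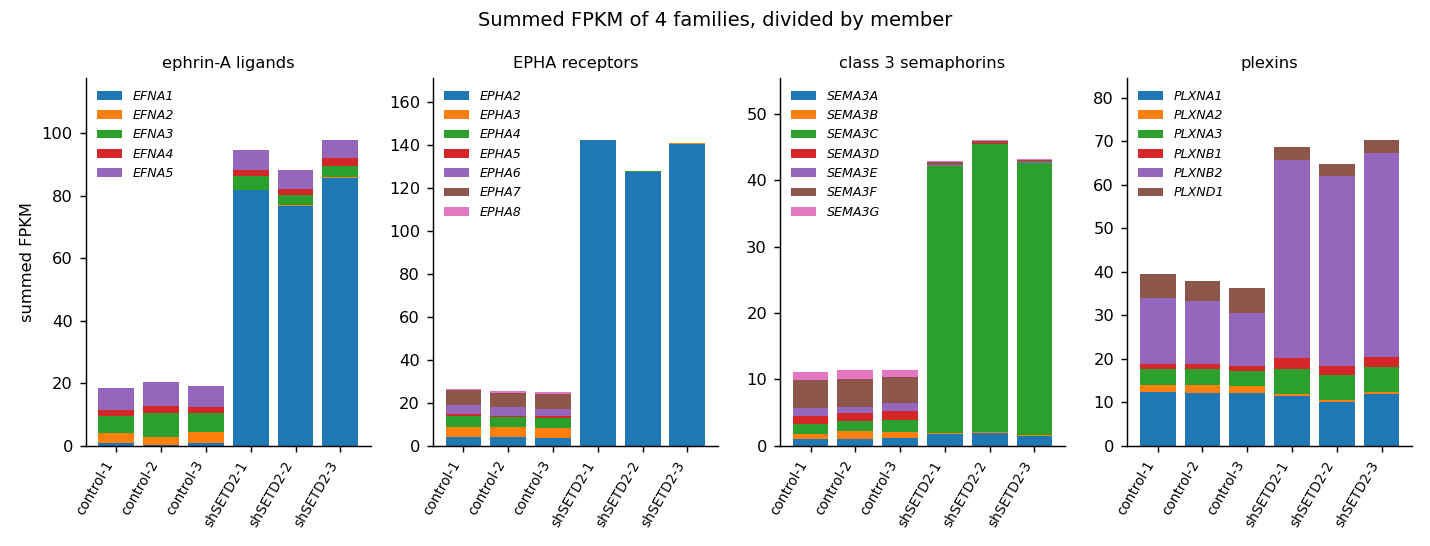
Summed FPKM (vertical axis) of the ephrin-A ligands, EPHA receptors, class 3 semaphorins and plexins in each library (horizontal axis), stacked by member. EFNA1, EPHA2 and SEMA3C make up most of the shSETD2 bars, 86.5% or more in each library, while the control bars are lower and divided over several members.

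The ephrin-B side changed less in kind. The 3 ephrin-B ligands, transmembrane proteins that also signal back into their own cell, were all lower in the shSETD2 libraries with the FPKM as deposited. Of all genes tested, 51.8% were lower. EFNB2, a marker of arterial endothelium and ligand of EPHB4, was at 7.83, 8.49 and 7.14 FPKM in the control and 4.06, 3.92 and 3.88 in the shSETD2 libraries (log2 fold change -0.83, adjusted p = 4.29e-05). EFNB3 fell from 3.71, 3.93 and 3.29 FPKM to 1.10, 0.715 and 0.862 (log2 fold change -1.30, adjusted p = 2.55e-05). EFNB1 was at 6.10 ± 0.319 against 3.99 ± 0.441 FPKM (SD, n = 3), with an adjusted p of 1.08e-03 that became 0.0519 with median ratio scaling.

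Among the EPHB receptors, EPHB4 carried most of the level in both groups, with 71.9% to 74.1% of the summed FPKM in the control and 93.1% to 94.8% in the shSETD2 libraries. EPHB4 was at 11.4, 12.6 and 12.1 FPKM against 10.7, 9.50 and 9.47, a log2 fold change of -0.26 (adjusted p = 9.04e-03) that was 0.06 with median ratio scaling (adjusted p = 0.401). It overlaps SLC12A9 on the opposite strand by 702 bases. The other EPHB genes fell to low levels. EPHB2, which takes part in midline crossing and synapse formation, was at 2.38, 2.74 and 2.26 FPKM in the control and 0.599, 0.495 and 0.691 in the shSETD2 libraries (log2 fold change -1.12, adjusted p = 2.24e-05). EPHB3 was at 1.33, 1.04 and 1.14 FPKM against 0, 0.0256 and 0.0154 (log2 fold change -1.10, adjusted p = 1.03e-05), and EPHB1, not tested, was between 0.755 and 0.901 in the control and listed at 0 in the shSETD2 libraries. EPHA8 and EPHB2 lie 107245 bases apart on chromosome 1. EPHB2 was called lower, and EPHA8, not tested, was listed at 0 in every shSETD2 library.

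Of the 7 class 3 semaphorins, all tested, 2 rose (28.6%) and 5 fell (71.4%) in the shSETD2 libraries, beside 26.8% and 51.8% of all genes tested. SEMA3C (ENSG00000075223.13_2), a secreted ligand needed for the division of the cardiac outflow tract, was at 1.49, 1.42 and 1.76 FPKM in the control libraries and 40.3, 43.5 and 41.0 in the shSETD2 libraries. The log2 fold change was 4.06 (SE 0.066, adjusted p = 4.50e-08), and its mean FPKM differed 26.7-fold. SEMA3F, a repellent that acts through NRP2, went from the highest class 3 semaphorin of the control libraries, at 4.32, 4.25 and 3.99 FPKM, to 0.514, 0.312 and 0.351 (log2 fold change -1.90, adjusted p = 1.37e-06). SEMA3D was at 1.11, 1.23 and 1.35 FPKM against 0.0868, 0.139 and 0.0784 (log2 fold change -1.01, adjusted p = 1.24e-05). Neither gene had a library in the range of the other group. SEMA3B, SEMA3E and SEMA3G were between 0.986 and 1.15 FPKM on average in the control and at most 0.126 in the shSETD2 libraries, with log2 fold changes from -0.97 to -0.85. SEMA3A, the founding axon repellent of the class, rose from 1.07 ± 0.135 to 1.70 ± 0.234 FPKM (SD, n = 3; log2 fold change 0.39, adjusted p = 6.38e-03).

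SEMA3C, SEMA3E, SEMA3A and SEMA3D lie in this order on chromosome 7 (GRCh37, minus strand), between 80371854 and 84816171. SEMA3C and SEMA3A were called higher, and SEMA3E and SEMA3D lower, so the direction alternated along the chromosome. SEMA3E and SEMA3A are 306767 bases apart, and SEMA3A and SEMA3D 502829. On chromosome 3, SEMA3F and SEMA3B lie 78482 bases apart on the same strand and were both lower, as was SEMA3G 2152092 bases beyond SEMA3B. PLXNB1 lies 1721018 bases before SEMA3F and was higher. The class 3 genes summed to 11.3 ± 0.183 FPKM (SD, n = 3) in the control libraries, against 44.1 ± 1.79 in those with shSETD2, and SEMA3C made up 12.5% to 15.4% and 93.9% to 94.8% of these sums.

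The summed FPKM of the membrane-bound semaphorins differed less between the groups than that of class 3. It was 27.0 ± 0.298 FPKM (SD, n = 3) in the control libraries, against 32.9 ± 1.77 in those with shSETD2. Of 11 listed, 9 were tested, with 3 higher (33.3%), 5 lower (55.6%) and 1 not called, beside 26.8% and 51.8% of all genes tested. SEMA4B had the largest rise, from 0.921, 1.08 and 1.14 FPKM to 9.57, 9.12 and 10.2 (log2 fold change 2.38, SE 0.069, adjusted p = 3.94e-07). SEMA6A, a ligand of PLXNA2 and PLXNA4 and the highest of this group in the control libraries, was at 5.18, 5.59 and 5.72 FPKM against 8.70, 8.34 and 8.04 (log2 fold change 0.53, adjusted p = 1.56e-04). SEMA6B fell from 3.74, 3.42 and 3.21 FPKM to 0.957, 0.984 and 1.21 (log2 fold change -1.12, adjusted p = 1.73e-05). These 3 genes did not overlap between the groups, whereas SEMA4C did, at 4.22, 3.33 and 4.16 FPKM against 4.96, 3.53 and 3.23 (adjusted p = 0.949). SEMA7A, a GPI-anchored semaphorin, was at 1.12 ± 0.303 against 0.216 ± 0.00816 FPKM (SD, n = 3; log2 fold change -0.79, adjusted p = 5.63e-04). SEMA4D, SEMA4G and SEMA6C fell by 0.27, 0.61 and 0.34 on the log2 scale, where SEMA4D was 0.09 with quantile normalization and the calls of SEMA4D and SEMA6C were lost with quantile normalization and median ratio scaling. SEMA4G shares 16354 bases with MRPL43 on the opposite strand, so its value is uncertain. SEMA4F rose by 0.37 (adjusted p = 0.0278), a call lost without control library 1 (adjusted p = 0.0869), control library 2 (0.0714), shSETD2 library 1 (0.0761) or shSETD2 library 3 (0.0808). SEMA6D, not tested, was at 1.11, 0.959 and 0.515 FPKM in the control and listed at 0 in the shSETD2 libraries, and SEMA5A was at most 0.0208 in any library.

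The receptors of the semaphorins shifted between members. PLXNB2, the receptor of SEMA4C and SEMA4D that is broadly expressed in epithelia, was at 15.0, 14.4 and 12.2 FPKM in the control libraries and 45.6, 43.8 and 46.8 in the shSETD2 libraries (log2 fold change 1.64, SE 0.079, adjusted p = 3.42e-06). PLXNB1 and PLXNA3 also rose, from 1.24 to 2.29 and from 3.55 to 5.91 FPKM on average (log2 fold changes 0.55 and 0.60, adjusted p = 2.77e-04 and 3.88e-05). PLXNA3 overlaps LAGE3 on the opposite strand by 11 bases. PLXNA2 fell from 1.70, 1.76 and 1.62 FPKM to 0.327, 0.250 and 0.296 (log2 fold change -1.06, adjusted p = 5.44e-06), and PLXND1, the receptor of SEMA3E, fell from 5.35 ± 0.593 to 2.83 ± 0.246 (SD, n = 3; log2 fold change -0.73, adjusted p = 3.29e-04). PLXNA1 was not called, at 12.2 ± 0.137 against 11.2 ± 0.918 (SD, n = 3; log2 fold change -0.12, adjusted p = 0.134), and its log2 fold change was 0.21 with median ratio scaling (adjusted p = 0.0269). The 6 plexins summed to 37.9 ± 1.70 and 67.9 ± 2.92 FPKM (SD, n = 3), and PLXNB2 made up 33.7% to 38.0% of the sum in the control and 66.4% to 67.7% in the shSETD2 libraries.

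Both neuropilins were low in every library. NRP2 was at 1.58, 1.92 and 1.73 FPKM in the control and 0.295, 0.262 and 0.259 in the shSETD2 libraries (log2 fold change -1.11, adjusted p = 8.87e-06). NRP1 was at 1.68, 1.56 and 1.41 FPKM against 1.09, 1.24 and 1.06, a log2 fold change of -0.26 (adjusted p = 0.0112) that was 0.16 with quantile normalization and -0.06 with median ratio scaling, both not called. In the shSETD2 libraries the mean FPKM of SEMA3C was thus 41.6, while that of NRP1 was 1.13 and that of NRP2 0.272.

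SLIT2 showed the largest fall of all members on the log2(FPKM + 1) scale. SLIT2 (ENSG00000145147.19_4), a large secreted repellent whose gene spans chromosome 4 of GRCh37 from 20254883 to 20622184, was at 32.1, 32.4 and 31.2 FPKM in the control libraries, the highest of the 57 members there. In the shSETD2 libraries it was at 0.801, 0.655 and 0.674, a 44.9-fold lower mean FPKM (log2 fold change -4.27, SE 0.053, adjusted p = 2.26e-08). An RNA inside one of its introns, SLIT2-IT1, is listed separately on the same strand. SLIT1, not tested, was at 0.858, 0.817 and 0.629 FPKM against 0.0276, 0.0228 and 0.0377.

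The tested ROBO receptors moved less than SLIT2 on the log2(FPKM + 1) scale. ROBO1, the main SLIT receptor here, was at 15.7, 16.7 and 16.3 FPKM in the control and 8.52, 8.57 and 8.88 in the shSETD2 libraries (log2 fold change -0.84, SE 0.043, adjusted p = 5.03e-06). ROBO2 fell from 0.896 to 0.330 FPKM on average (log2 fold change -0.51, adjusted p = 6.11e-04), a call that was lost with quantile normalization (-0.04, adjusted p = 0.661). ROBO3, a divergent member that does not bind SLIT with high affinity in mammals, rose from 1.77 ± 0.0805 to 3.05 ± 0.121 (SD, n = 3; log2 fold change 0.55, adjusted p = 1.22e-04). ROBO4, an endothelial receptor that was not tested, was at 0.0155, 0 and 0 FPKM in the control and 0.865, 0.758 and 0.744 in the shSETD2 libraries. ROBO3 and ROBO4 lie 2221 bases apart with their ends facing each other on chromosome 11 of GRCh37. Of 10 endothelium markers 8, among them PECAM1 and CDH5, have no value here, EGFL7 averaged 6.68 FPKM in the control and 8.85 in the shSETD2 libraries, and ESAM was at most 0.537 in the control and between 42.0 and 48.4 in the shSETD2 libraries.

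The netrin receptors of the UNC5 family were nearly absent from the shSETD2 libraries. UNC5B (ENSG00000107731.12_2), a repulsive netrin receptor that can trigger cell death when netrin is missing, was at 16.7, 16.4 and 16.2 FPKM in the control libraries and 0.0454, 0.0360 and 0.0415 in the shSETD2 libraries (log2 fold change -4.06, SE 0.048, adjusted p = 1.68e-08). UNC5C was at 2.29, 1.95 and 2.18 FPKM in the control libraries and listed at 0 in each shSETD2 library (adjusted p = 1.15e-06). UNC5A was at 0.842 ± 0.148 against 0.256 ± 0.0536 FPKM (SD, n = 3; adjusted p = 7.10e-04), a call lost with quantile normalization (adjusted p = 0.477). Together the 3 genes summed to 19.4 ± 0.215 FPKM (SD, n = 3) in the control libraries, against 0.297 ± 0.0497 in those with shSETD2.

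The ligand of these receptors differed far less between the groups. NTN1, the secreted netrin that attracts axons through DCC, was at 5.17, 5.53 and 5.10 FPKM in the control and 4.32, 3.51 and 4.38 in the shSETD2 libraries. This gave a log2 fold change of -0.31 (adjusted p = 0.0127), and it was -0.12 with quantile normalization (adjusted p = 0.202) and -0.02 with median ratio scaling (adjusted p = 0.864). NTN4 fell from 1.16 to 0.497 FPKM on average (log2 fold change -0.53, adjusted p = 1.37e-03, and 0.475 with quantile normalization), and NTN3 was at 0.344 to 0.648 in the control and listed at 0 in the shSETD2 libraries. NEO1, the gene of neogenin, a DCC relative that is not among the 57 members, was at 10.5, 10.4 and 9.99 FPKM against 4.34, 3.81 and 4.53 (log2 fold change -1.12, adjusted p = 9.12e-06).

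**Figure D5:**
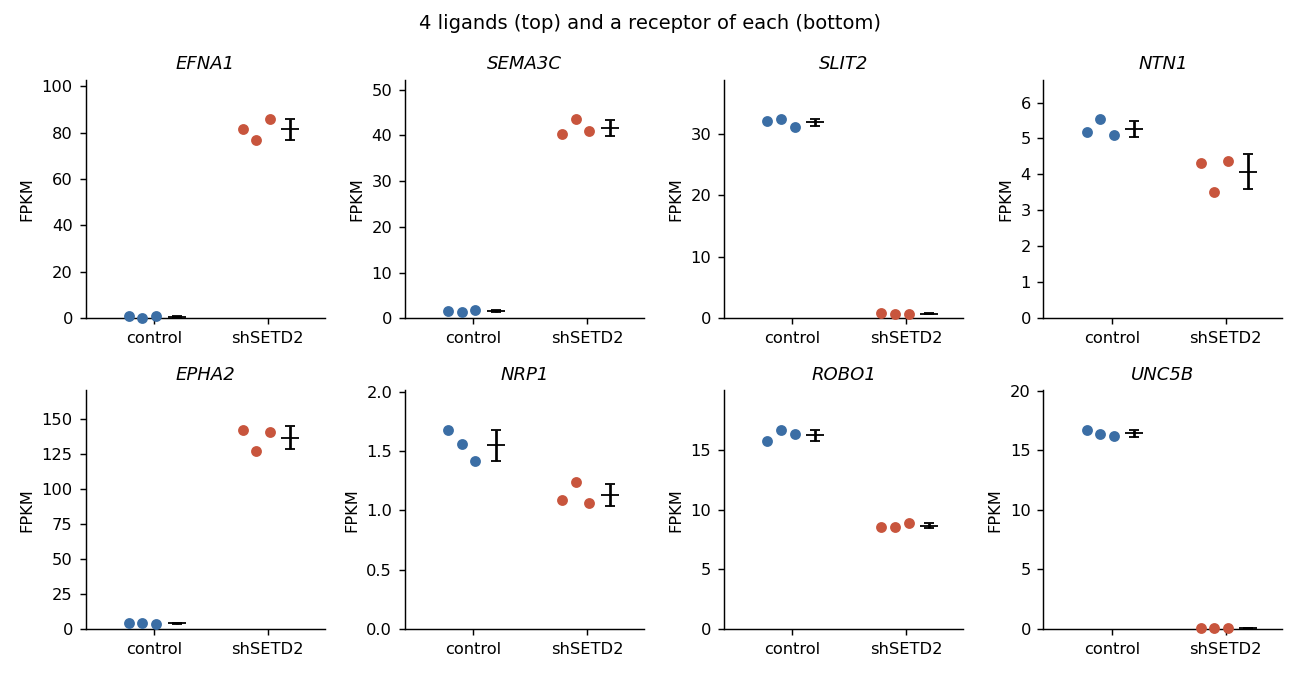
FPKM (vertical axes, each from 0) of 4 ligands and, below each, a receptor that binds it, in the 3 control and 3 shSETD2 libraries; points are libraries, and horizontal marks with bars are means ± SD. EFNA1 and EPHA2 are both higher in the shSETD2 libraries, SEMA3C rises while NRP1 is slightly lower, and SLIT2 and UNC5B are near 0 where ROBO1 and NTN1 remain.

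A hand-written list of 35 known ligand and receptor pairs was used to describe which partners were present together, taking a mean FPKM of 1 as present. Both partners have values for 29 pairs. Of these, 24 were present in the control and 10 in the shSETD2 libraries, with 9 in both groups. The share of all genes at this level in each group was not counted, so these counts have no background. The pair present in the shSETD2 group alone was EFNA1 with EPHA2, at 81.4 and 136.8 FPKM. In the control libraries EFNA1 was at 0.728, so this pair missed the level there while EPHA2 was at 3.98. The 15 pairs present in the control group alone included SLIT2 with ROBO1, NTN1 with UNC5B and with UNC5C, SEMA3F with NRP2, and EFNA5 with EPHA3, EPHA4 and EPHA7. In 11 of these 15 pairs the ligand stayed at 1 FPKM or more in the shSETD2 libraries and the receptor did not, among them NTN1 with UNC5B. In 2 pairs, SLIT2 with ROBO1 and SEMA3E with PLXND1, the receptor stayed and the ligand did not, and in 2 neither stayed. Single genes recur across these pairs, as EPHA4, EFNA5 and NTN1 do, so the pairs are not independent. Pairs present in both groups were EFNA4 and EFNA5 with EPHA2, EFNB2 with EPHB4, NTN1 with NEO1, SEMA3A and SEMA3C with NRP1, SEMA4C with PLXNB2, and SEMA4D with PLXNB1 and PLXNB2.

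Co-receptors and intracellular effectors of these pathways were followed with a hand-written list of 60 genes, of which 55 are listed and 53 were tested. In the shSETD2 libraries 29 rose (54.7%) and 18 fell (34.0%), beside 26.8% and 51.8% of all genes tested, with a median log2 fold change of 0.35. Of 52 tested with median ratio scaling, 33 rose and 13 fell, beside 38.2% and 37.8% of all genes. The difference between this list and the ligands and receptors was not tested. The largest rise was that of DPYSL3, a collapsin response mediator protein, from 0.399, 0.238 and 0.281 FPKM to 31.2, 27.4 and 27.2 (log2 fold change 4.50, adjusted p = 5.58e-08). RRAS, a small GTPase on which plexins act, rose from 4.09 ± 0.121 to 46.1 ± 1.81 FPKM (SD, n = 3; log2 fold change 3.21, adjusted p = 3.32e-08). L1CAM, an adhesion molecule that joins the SEMA3A receptor complex, rose from 0.582 to 12.5 FPKM on average (log2 fold change 3.10). MICAL2, an enzyme that oxidizes actin, rose from 0.509 to 10.3 (log2 fold change 2.90), and ITGB1, the integrin subunit that binds SEMA7A, from 21.6 to 161.0 (log2 fold change 2.84).

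Within the collapsin response mediator family the members split. DPYSL5 was at 10.5, 10.2 and 8.31 FPKM and DPYSL4 at 3.67, 4.42 and 3.64 in the control libraries, and both were listed at 0 in every shSETD2 library, where DPYSL3 was high. NRCAM, an L1 family adhesion molecule that partners with NRP2, was at 5.25, 5.59 and 5.57 FPKM in the control and listed at 0 in the shSETD2 libraries. Of the exchange factors, TIAM1, which activates RAC1, fell from 6.89, 8.55 and 11.3 FPKM to 0.0201, 0.0564 and 0.0338 (log2 fold change -3.23, adjusted p = 3.55e-06). NGEF, also called ephexin-1 and a partner of EPHA4, fell from 4.14, 4.92 and 4.06 to 0.188, 0.160 and 0.262 (log2 fold change -2.16, adjusted p = 1.19e-06). The GTPase RHOA, to which several of these pathways lead, was at 148.9 ± 2.26 against 152.8 ± 8.37 FPKM (SD, n = 3) and was not called (adjusted p = 0.481).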

How the data were processed

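Total RNA of 6 libraries was sequenced with a stranded kit. The authors mapped reads to hg19 (GRCh37) with Hisat2, quantified genes with Ballgown and deposited FPKM per gene and library; versions, annotation release, strand setting and the filter on listed genes are not given in the sources used here. A second deposited table, with the authors' log2 fold changes, p-values and q-values, was not used. The FPKM of a library summed to 218769 to 224603. Low values shared no common step between libraries (at most 3.66% at 1 ratio), which leaves depth unknown and counting error out.

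Groups come from the sample titles. Genes averaging 0.5 FPKM or more were tested with limma 3.58.1 (R 4.3.3; lmFit, then eBayes with an intensity trend) on log2(FPKM + 1), Benjamini-Hochberg adjusted over 14068 genes, threshold 0.05. The fit was checked on simulated data. Alternatives were other pseudocounts, filters, scalings, no trend, a replicate block and each library left out; those for family sums and pairs were added after seeing the data. Members with an adjusted p under 0.05 and an absolute log2 fold change of at least 1, and the highest member of each family, are given per library. From the signaling list the 5 highest and 5 lowest called genes are named, and RHOA and NEO1 were added after their values were seen. Members, lists and tests were chosen with earlier results of these data known. Other marker lists gave summed FPKM of 129 to 145 and 174 to 184 (mesenchyme, 10 of 12 listed; control and shSETD2), 3.35 to 5.05 and 18.1 to 19.6 (neuron, 3 of 12), 6.49 to 7.59 and 50.1 to 57.3 (endothelium, 2 of 10) and 1.57 to 1.95 and 2.55 to 2.97 (leukocyte, 3 of 10). Tables and figures used matplotlib 3.10.9, pandas 2.3.3 and Python 3.11.15.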

Additional observations from a re-analysis of the deposited data

How the results depend on the processing

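Of 699 results of single members under 15 alternatives, 662 kept their direction and side of the threshold, 26 lost their call, 2 gained one (EFNA4 with quantile normalization and PLXNA1 with median ratio scaling) and 14 changed sign, of which 4 also lost and 1 gained a call. All 21 members with a called log2 fold change of 1 or more kept call and sign in every alternative that tested them. Signs changed for members with small differences. With median ratio scaling the log2 fold change was 0.12 for EFNA5, 0.06 for EPHB4, 0.21 for PLXNA1 and 0.27 for SEMA4C. With quantile normalization it was 0.16 for NRP1, 0.09 for SEMA4D and 0.23 for SEMA4C, and with upper quartile scaling 0.00 for SEMA4C. Leaving out 1 library gave -0.08 to 0.12 for EFNA4 and -0.16 to 0.09 for SEMA4C. Of all calls, 34.1% were higher with the FPKM as deposited, 44.5% with quantile normalization and 50.3% with median ratio scaling.

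Requiring a mean FPKM of at least 5 left 7078 genes, with 5647 called, 2401 higher (33.9%) and 3246 lower (45.9%). It left 15 members, with 14 called, 6 higher and 8 lower. Of the 38 genes of the signaling list that it left, 27 were higher and 5 lower. Fewer genes were tested here, and the balance of directions also changed. Without a filter, 53 of 57 members were called, 12 higher and 41 lower. Of all genes, 76.3% were called there, 25.2% higher and 51.1% lower. SETD2 ran from -0.83 to -0.45 with 1 library left out and was -0.25 with median ratio scaling (adjusted p = 0.376). Same-numbered libraries did not deviate together (correlations -0.024, 0.018 and -0.008), so the numbers are not taken to pair them. With the number as a replicate block, SETD2 was -0.58 (adjusted p = 0.0156), and the same 46 members were called, beside 78% of all genes. With no read counts, differences among members near 0 cannot be set against counting error.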
